A study of Rattus norvegicus with 46 samples.

Results

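The genes described here were the apelin receptor gene Aplnr and 9 genes of the blood vessel wall and its growth signal: Kdr, Flt1, Tek, Cdh5, Vwf, Egfl7, Emcn, Pecam1 and Vegfa. They were picked by gene symbol from a table of 32552 genes, and 9 of the 10 symbols had 1 entry each. Pecam1 was not analysed here, as no gene of the table bears that symbol. The set was chosen on measured values of these libraries: Aplnr had stood out in the quadriceps of food-restricted rats and of CagriSema-treated rats, so its levels in that muscle are given as a description, with no test. The study sequenced RNA from the liver and the quadriceps, a thigh muscle, of wild-type rats made obese by diet (DIO rats). CagriSema is a mix of 2 appetite-lowering drugs: cagrilintide mimics amylin, a hormone of the pancreatic islet, and semaglutide activates the receptor of the gut hormone GLP-1. The 3 treatments were vehicle, CagriSema, and food restriction that brought body weight to that of the CagriSema group (weight matched). Treatment lasted 20 days for the liver samples, the duration for the muscle is not stated, and no age was given for either. The liver was sequenced in 8 vehicle, 8 weight-matched and 7 CagriSema libraries, and the quadriceps in 7, 8 and 8. All groups shared the genotype and the diet-induced obesity, so a lean group was no part of the comparisons. Whether the libraries of a group came from separate rats is not stated in the labels, so p-values measure the spread between libraries.

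Blood vessels are lined by endothelial cells, which make up a small part of either tissue. Apelin is a peptide that signals through the G protein-coupled receptor APLNR on endothelial and some other cells, where it is known for relaxing vessels and for roles in vessel growth. VEGF-A, the product of Vegfa, is released by myofibres, hepatocytes and other cells and drives endothelial growth and survival through VEGFR2 (Kdr), while VEGFR1 (Flt1) binds the same ligand tightly and holds much of it away from VEGFR2. Tek encodes TIE2, the receptor of the angiopoietins that steady mature vessels. Cdh5 encodes VE-cadherin of endothelial junctions, Vwf the clotting protein von Willebrand factor, Egfl7 a secreted matrix protein of vessels, and Emcn the surface sialoprotein endomucin of capillaries and veins. Muscle capillaries have a closed lining, and liver sinusoids have a lining with open pores.

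The 250 bases before the start of the VEGF receptor genes and of their ligand gene are printed because the 2 receptors behaved unlike each other below. They were taken from RefSeq on rat build GRCr8, plus strand, and 5 of the 10 genes had such an entry (Kdr, Flt1, Vegfa, Egfl7 and Emcn, with 7 start sites). Entries for Aplnr, Cdh5, Tek, Vwf and Pecam1 were not used here. Capitals mark matches, on either strand, to 4 sets of letters: the core of an ETS factor motif (CCGGAA), the core of a hypoxia response element (ACGTG), a GC box (GGGCGG) and a TATA box (TATAAA). The windows are Kdr at chr14:32571813-32572062, Flt1 at chr12:12333180-12333429 and, for Vegfa, the first of its start sites at chr9:22452604-22452853.
Kdr: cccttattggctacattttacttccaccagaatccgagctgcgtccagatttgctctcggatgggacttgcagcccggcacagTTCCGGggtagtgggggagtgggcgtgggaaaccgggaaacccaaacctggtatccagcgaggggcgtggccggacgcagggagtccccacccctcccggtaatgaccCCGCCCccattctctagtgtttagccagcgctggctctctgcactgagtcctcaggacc
Flt1: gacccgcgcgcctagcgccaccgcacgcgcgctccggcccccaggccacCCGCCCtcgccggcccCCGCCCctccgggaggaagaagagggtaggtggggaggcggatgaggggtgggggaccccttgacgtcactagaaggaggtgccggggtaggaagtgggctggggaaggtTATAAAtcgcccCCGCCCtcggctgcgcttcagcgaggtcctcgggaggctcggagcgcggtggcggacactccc
Vegfa: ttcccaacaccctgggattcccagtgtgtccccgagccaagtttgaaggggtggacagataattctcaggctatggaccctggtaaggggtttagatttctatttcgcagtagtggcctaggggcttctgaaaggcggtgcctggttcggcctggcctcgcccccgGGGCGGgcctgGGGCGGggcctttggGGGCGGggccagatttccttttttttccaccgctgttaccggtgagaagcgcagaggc
The Kdr window held 1 ETS core, starting 167 bases before the start site, and 1 GC box at 59. The Flt1 window held 3 GC boxes, at 201, 185 and 63 bases, and 1 TATA box at 75. The Vegfa window held 3 GC boxes, at 84, 73 and 58. Among 33469 RefSeq rat windows of this length, 12.6% held the ETS core, 16.6% ACGTG, 30.5% the GC box and 12.9% the TATA box. None of the 3 windows held ACGTG, and the Emcn window held none of the 4 sets of letters. The form GCGTG of the hypoxia core was not scanned and occurs, on 1 strand or the other, in the printed Kdr and Flt1 windows. Such matches are a description of the letters, and no binding was measured.

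Library totals ran from 9888858 to 15948219 counts in the liver and from 11462369 to 16525274 in the quadriceps. Markers fitted the labelled tissues: the summed level of the hepatocyte markers was 107333 to 187835 CPM (counts scaled to a common library total) in liver and 36.2 to 113 in quadriceps. The myofibre markers summed to 113596 to 198738 CPM in the quadriceps and to at most 1.28 in every liver library but vehicle library 1, at 83.5. Liver vehicle libraries 4 and 6 stood apart from the other liver libraries on the first principal component, and library 6 had 9.29% of its counts on mitochondrial genes. In the quadriceps, vehicle library 8 stood apart on the first component and had the highest mitochondrial share, 22.8%, and vehicle libraries 2 and 5 lay together at one end of the second. In whole tissue, fewer endothelial cells and less RNA of a gene per cell cannot be told apart. Levels below are CPM after scaling by TMM factors, which adjust each library total for a few dominant genes. CPM has no correction for gene length, so levels are compared between libraries and not between genes.

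Aplnr in the quadriceps was lower in the weight-matched rats than in the vehicle rats, and higher with CagriSema than with weight matching. The 7 vehicle libraries ran from 6.60 CPM to 12.1 CPM with a median of 8.04, the 8 weight-matched libraries from 2.53 to 7.11 with a median of 5.95, and the 8 CagriSema libraries from 6.12 to 12.1 with a median of 10.3. Of the weight-matched libraries, 7 of 8 lay below the lowest vehicle library, and 7 of 8 CagriSema libraries lay above the highest weight-matched one. The groups still overlapped through 1 weight-matched library at the top and 1 CagriSema library at the bottom of its group. Means were 8.65 ± 2.0 CPM (SD, n = 7), 5.49 ± 1.49 (n = 8) and 9.72 ± 1.96 (n = 8). The log2 fold change was -0.66 ± 0.18 (SE) for weight matched against vehicle, which is 0.634-fold, and 0.83 ± 0.17 for CagriSema against weight matched, which is 1.77-fold. CagriSema against vehicle was 0.17 ± 0.17, with a 95% interval of -0.19 to 0.53. In order of mean level CagriSema and vehicle were neighbours with overlapping libraries, and weight matched lay below both. These comparisons share groups: the vehicle libraries enter both comparisons against vehicle, and the weight-matched libraries enter both comparisons with that group.

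**Figure D1:**
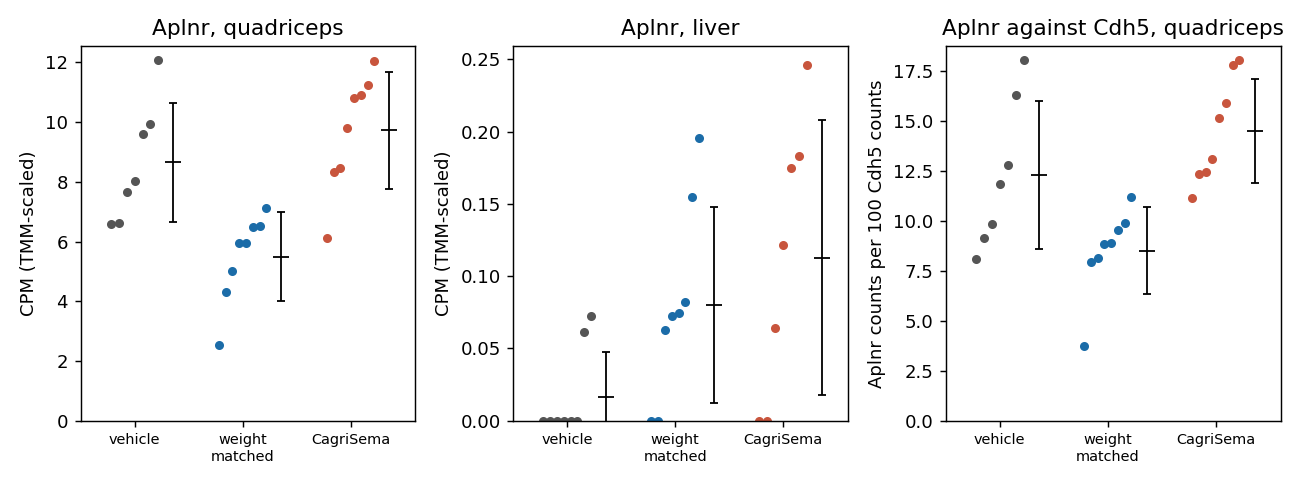
Level of Aplnr in TMM-scaled CPM (vertical axis) by treatment in quadriceps and liver, 1 point per library, with bars for the mean and SD. In the quadriceps 7 of 8 weight-matched libraries lie below the lowest vehicle library at 6.60 CPM, and every liver library lies near 0.

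Leaving out 1 quadriceps library at a time kept the log2 fold change of Aplnr for weight matched against vehicle between -0.72 and -0.55. That of CagriSema against weight matched stayed between 0.72 and 0.91. The edgeR call of Aplnr changed with single libraries and is not read as a test, since these values led to its choice. Raw counts of Aplnr were 79 to 171 per vehicle library, 38 to 110 per weight-matched library and 91 to 198 per CagriSema library.

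Ratios of Aplnr to the other endothelial genes are given as a description only, since the same Aplnr counts led to its choice. Per 100 counts of Cdh5, Aplnr had 8.11 to 18.0 counts in vehicle libraries (median 11.9), 3.73 to 11.2 in weight-matched libraries (median 8.87) and 11.1 to 18.0 in CagriSema libraries (median 14.1). Per 100 counts of the 7 other endothelial genes summed (Kdr, Flt1, Tek, Cdh5, Vwf, Egfl7 and Emcn), the medians were 3.42 in vehicle, 2.29 in weight-matched and 3.57 in CagriSema libraries. The lowest CagriSema library, at 2.93, lay above the highest weight-matched library, at 2.76, on this ratio, whereas vehicle and weight-matched libraries overlapped. The summed level of those 7 genes had medians of 285 CPM in vehicle, 256 in weight-matched and 269 in CagriSema libraries, with ranges of 214 to 385, 189 to 310 and 209 to 316.

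In the liver Aplnr was at or near the limit of detection. Each liver library held 0 to 4 Aplnr counts, and the group totals were 2 counts in vehicle, 9 in weight-matched and 12 in CagriSema libraries. It was at 0 in 6 of 8 vehicle, 2 of 8 weight-matched and 2 of 7 CagriSema libraries. A count of 0 allows a level of up to 0.182 to 0.364 CPM in a liver library (3 counts). Vehicle libraries held 0 or 1 count each, weight-matched libraries 0 to 3 and CagriSema libraries 0 to 4, so the treated groups had the higher totals on very few counts. Aplnr did not meet the filter on low counts there, and no fold or test between liver treatments is given. Relative to sequencing depth, Aplnr was 466-fold higher in quadriceps than in liver in vehicle rats (95% interval 128 to 3850), 68.2-fold in weight-matched rats (35.7 to 150) and 88.8-fold in CagriSema rats (50.6 to 172). These exact Poisson intervals cover counting error only.

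The genes that make and clear apelin were described from a list of 5, of which the second ligand Apela had no entry. Apln, the apelin precursor, ran in the quadriceps from 1.22 to 9.11 CPM in vehicle libraries (median 5.08), from 2.62 to 6.14 in weight-matched libraries (median 4.34) and from 3.03 to 6.06 in CagriSema libraries (median 5.56). The groups overlapped through nearly all of their ranges. Its log2 fold changes were -0.21 for weight matched against vehicle, 0.15 for CagriSema against vehicle and 0.36 for CagriSema against weight matched. Furin, a protease that cuts proproteins, had -0.04, -0.12 and -0.08 in the same order, and Mme, which encodes the peptidase neprilysin, had 0.08, -0.02 and -0.10. By edgeR none of these 3 passed the threshold in any quadriceps comparison, none had an unadjusted p under 0.05, and DESeq2 called none. In the liver Mme was higher in weight-matched than in vehicle rats by a log2 fold change of 2.0 ± 0.57 (edgeR adjusted p = 0.0355). Mme was low there, 0.0760 to 1.26 CPM in vehicle and 0.738 to 7.11 in weight-matched libraries, and without vehicle libraries 4 and 6 its adjusted p was 0.0888. Liver log2 fold changes of Apln and Furin were -0.06 and 0.18 in that comparison and did not pass.

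Among the VEGF genes in the quadriceps, Kdr was lower on average under both treatments, while Flt1 and Vegfa lay close to vehicle. Kdr ran from 22.5 to 59.1 CPM in vehicle libraries (median 38.3), from 19.0 to 36.8 in weight-matched libraries (median 24.2) and from 16.9 to 37.5 in CagriSema libraries (median 28.9). No weight-matched or CagriSema library exceeded the vehicle median, although all 3 groups overlapped: vehicle libraries 1, 2 and 6 lay at 24.8, 22.5 and 36.4 CPM. The log2 fold change of Kdr was -0.53 ± 0.19 for weight matched against vehicle, -0.34 ± 0.19 for CagriSema against vehicle and 0.19 ± 0.18 between the treatments. Without vehicle library 8, the highest at 59.1 CPM, the first value was -0.39. Flt1 ran from 50.6 to 104 CPM in vehicle, 49.9 to 89.1 in weight-matched and 55.0 to 88.6 in CagriSema libraries, with medians of 63.3, 75.0 and 75.6. Its log2 fold changes against vehicle were 0.05 ± 0.14 and 0.09, and the groups overlapped throughout. The ratio of Kdr to Flt1 counts had medians of 0.509 in vehicle, 0.357 in weight-matched and 0.409 in CagriSema libraries, with ranges of 0.367 to 0.720, 0.23 to 0.482 and 0.260 to 0.506. Vegfa spread most in the vehicle group, from 145 to 657 CPM around a median of 327, and ran from 265 to 497 in weight-matched and 281 to 449 in CagriSema libraries. Its log2 fold changes against vehicle were 0.07 ± 0.20 and 0.03, and the first was -0.07 without vehicle library 2 and 0.29 without vehicle library 8. With library totals only, the Flt1 and Vegfa values for weight matched against vehicle were -0.03 and -0.01, so neither had a settled direction.

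The other endothelial genes of the quadriceps differed little between treatments, apart from a lower mean of Emcn. Emcn ran from 7.31 to 13.7 CPM in vehicle libraries (median 10.2), 5.93 to 9.12 in weight-matched libraries (median 7.90) and 6.05 to 10.7 in CagriSema libraries (median 7.88). No weight-matched library and 1 CagriSema library lay above the vehicle median. Its log2 fold change was -0.34 ± 0.14 for weight matched and -0.30 ± 0.14 for CagriSema, both against vehicle. Tek had medians of 23.7, 25.9 and 25.6 CPM in vehicle, weight-matched and CagriSema libraries, Cdh5 of 66.9, 66.8 and 67.4, Vwf of 41.6, 38.8 and 39.3, and Egfl7 of 17.0, 17.2 and 17.7. These 4 genes overlapped between all groups, and their log2 fold changes for weight matched against vehicle ran from -0.19 ± 0.20 for Vwf to 0.11 ± 0.10 for Tek. Vehicle library 8 was the highest of its group for 7 of the 8 genes other than Aplnr, and library 6 the lowest for 5. In the CagriSema group library 35 was highest and library 33 lowest for 6 of the 8 each.

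**Figure D2:**
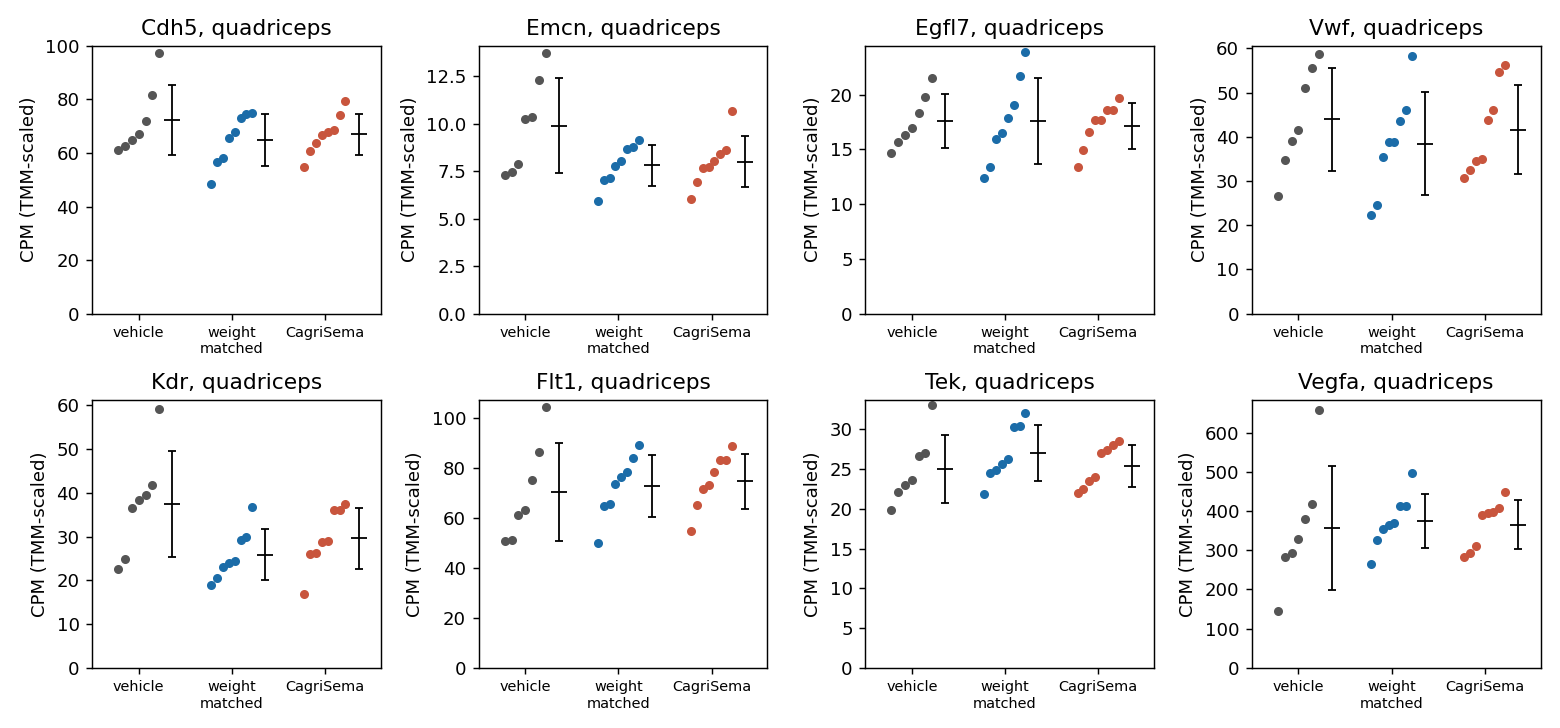
Level of the 8 other genes in quadriceps in TMM-scaled CPM (vertical axis, a separate scale per gene) by treatment, 1 point per library, with bars for the mean and SD. All groups overlap for every gene, and no weight-matched library of Kdr exceeds the vehicle median of 38.3 CPM.

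The 9 genes were set against all quadriceps genes tested, from which nothing is read about Aplnr since these contrasts chose it. For weight matched against vehicle 1 of 9 passed the threshold of an adjusted p under 0.05 (edgeR), Aplnr, against 2.29% of all genes, and the median log2 fold change was -0.16 against -0.01. For CagriSema against vehicle 0 of 9 passed by edgeR and by DESeq2, 1 had an unadjusted p under 0.05, and 0.0321% of all genes passed. For CagriSema against weight matched 1 of 9 passed, again Aplnr, against 0.128% of all genes, with a median log2 fold change of 0.04 against 0.00. All 9 genes met the filter on low counts in the quadriceps, and 8 of 9 did in the liver, where Aplnr did not.

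In the liver the VEGF receptors, Tek and Vegfa had higher means with weight matching than with vehicle, and no gene passed the threshold by edgeR with TMM factors. DESeq2 called Kdr (adjusted p = 0.0431) and Vegfa (adjusted p = 0.0451) in this comparison, and edgeR with library totals only also called both. Kdr ran from 42.5 to 91.9 CPM in vehicle libraries (median 83.6), from 71.7 to 119 in weight-matched libraries (median 101) and from 75.9 to 109 in CagriSema libraries (median 88.8). Of the weight-matched libraries 6 of 8 lay above the highest vehicle library, and the other 2 lay within the vehicle range. The log2 fold change was 0.40 ± 0.13 (edgeR adjusted p = 0.0686) for weight matched and 0.24 ± 0.14 for CagriSema against vehicle. Flt1 ran from 7.45 to 22.7 CPM in vehicle, 20.2 to 29.2 in weight-matched and 18.3 to 29.1 in CagriSema libraries. Its weight-matched libraries all lay above the vehicle median of 18.8, with a log2 fold change of 0.42 ± 0.16 (adjusted p = 0.101), and its CagriSema value was 0.50 ± 0.16 (adjusted p = 0.152). Tek ran from 8.28 to 26.7, 20.7 to 30.3 and 19.3 to 29.3 CPM in the same order of groups. Its log2 fold changes against vehicle were 0.43 ± 0.16 (adjusted p = 0.0955) and 0.41 ± 0.16 (adjusted p = 0.207), and its groups overlapped.

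The lowest liver vehicle values of Kdr, Flt1, Tek and Cdh5 all came from libraries 6 and 4, both of which stood apart. Library 6 was the lowest of the vehicle group for 5 of the 8 genes. Without both libraries the log2 fold change for weight matched against vehicle was 0.25 for Kdr (edgeR adjusted p = 0.114), for Flt1 and for Tek. The distance from vehicle thus shrank for all 3. That of Cdh5 changed sign, from 0.14 with all libraries to -0.04 without both (edgeR adjusted p = 0.885). The summed macrophage and Kupffer cell markers were also lowest in vehicle library 6, at 68.8 CPM against 236 to 535 in the other vehicle libraries, and were not at 0 in any of them. Their part in the result was not tested.

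Vegfa in the liver was lower on average with CagriSema than with weight matching. It ran from 267 to 398 CPM in vehicle libraries (median 350), from 323 to 464 in weight-matched libraries (median 405) and from 316 to 369 in CagriSema libraries (median 330). No CagriSema library exceeded the weight-matched median, and 3 of 7 lay below the lowest weight-matched library. The log2 fold change was 0.22 ± 0.08 (edgeR adjusted p = 0.0940) for weight matched against vehicle, -0.07 ± 0.08 for CagriSema against vehicle, and -0.30 ± 0.08 (adjusted p = 0.120) for CagriSema against weight matched, with a 95% interval of -0.47 to -0.12. Without vehicle libraries 4 and 6 the last value was -0.30 with an adjusted p of 0.0118, and leaving out vehicle library 4 alone gave an adjusted p of 0.0208. Vehicle libraries enter this comparison only through the filter, the scaling and the shared estimate of the spread. Of 23 edgeR fits leaving out 1 library, 1 passed, and the adjusted p reached 0.259 without CagriSema library 39. The remaining liver genes overlapped between groups. Cdh5 had medians of 24.7, 24.6 and 29.5 CPM in vehicle, weight-matched and CagriSema libraries, Vwf of 13.2, 12.7 and 14.2, Egfl7 of 12.3, 13.5 and 10.9, and Emcn of 4.38, 4.17 and 4.44. Cdh5 was above the median of both other groups in 7 of 7 CagriSema libraries, with log2 fold changes of 0.32 ± 0.18 against vehicle and 0.18 against weight matched that did not pass. Egfl7 was the only one of these 4 whose CagriSema libraries all lay below the weight-matched median, with a log2 fold change of -0.29 ± 0.15 (adjusted p = 0.496).

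**Figure D3:**
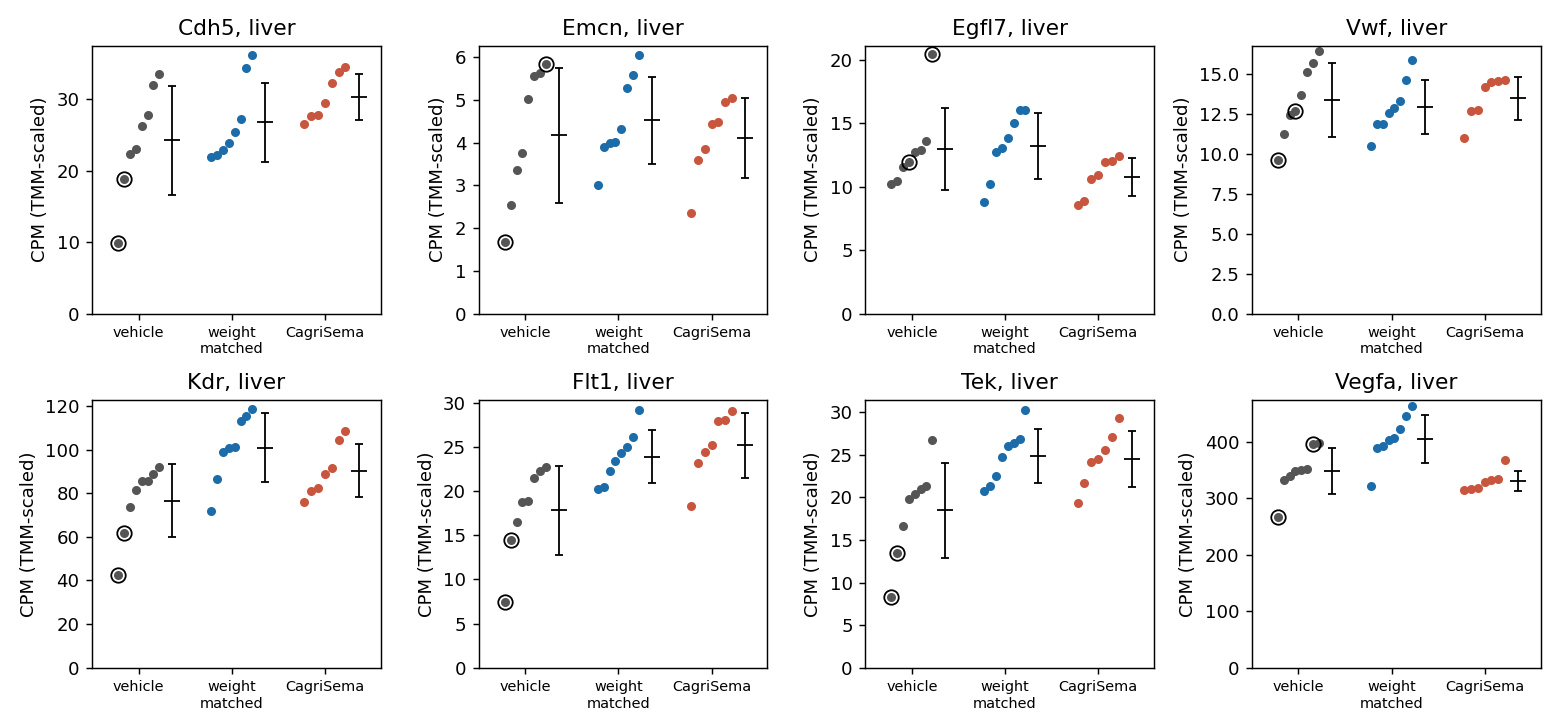
Level of the 8 other genes in liver in TMM-scaled CPM (vertical axis, a separate scale per gene) by treatment, 1 point per library, with bars for the mean and SD and circles around vehicle libraries 4 and 6. Of the weight-matched libraries of Kdr 6 of 8 lie above the highest vehicle library at 91.9 CPM, and the lowest vehicle points of Kdr, Flt1, Tek and Cdh5 are circled.

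Against all liver genes tested, weight matching and vehicle gave 0 of 8 genes past the threshold by edgeR where 7.02% of all genes passed. DESeq2 called the 2 named above, and 4 had an unadjusted p under 0.05. Of the 8, 7 had a positive log2 fold change, with a median of 0.18 against -0.01 over all genes. For CagriSema against vehicle 0 of 8 passed by edgeR and by DESeq2, 2 had an unadjusted p under 0.05, and 0.354% of all genes passed. For CagriSema against weight matched 0 of 8 passed by edgeR, 1 had an unadjusted p under 0.05 and DESeq2 called 1 (both Vegfa), where 0.535% of all genes passed.

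The weight-matching response of Kdr differed between the tissues. In 1 edgeR fit over both tissues, the log2 fold change of Kdr for weight matched against vehicle was lower in quadriceps than in liver by 0.93 ± 0.23, with a 95% interval of -1.39 to -0.47 for the difference (adjusted p = 0.0185). Without quadriceps vehicle library 8 the difference was -0.79 (adjusted p = 0.0415), and without liver vehicle libraries 4 and 6 it was -0.78 (adjusted p = 0.0443). Kdr was 1 of 8 genes past the threshold, where 2.76% of all genes passed, and it was also the single one with an unadjusted p under 0.05. All 8 differences were below 0, with a median of -0.31 against -0.02 over all genes: Emcn -0.47 ± 0.26, Flt1 -0.37 ± 0.21, Tek -0.32 ± 0.19 and Cdh5 -0.30 ± 0.20 came after Kdr, and Egfl7 was nearest 0 at -0.03. These differences rest partly on the quadriceps libraries in which Aplnr was chosen. For the CagriSema response against vehicle 0 of 8 genes passed by edgeR, where 0.149% of all genes passed, and 2 had an unadjusted p under 0.05: Kdr at -0.57 ± 0.23 (adjusted p = 0.240) and Cdh5 at -0.43 ± 0.21 (adjusted p = 0.325). For CagriSema against weight matched 0 of 8 passed and none had an unadjusted p under 0.05, where 0.0213% of all genes passed, and Kdr was at 0.35 ± 0.23 (adjusted p = 0.820). DESeq2 was not run on these differences between tissues.

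**Figure D4:**
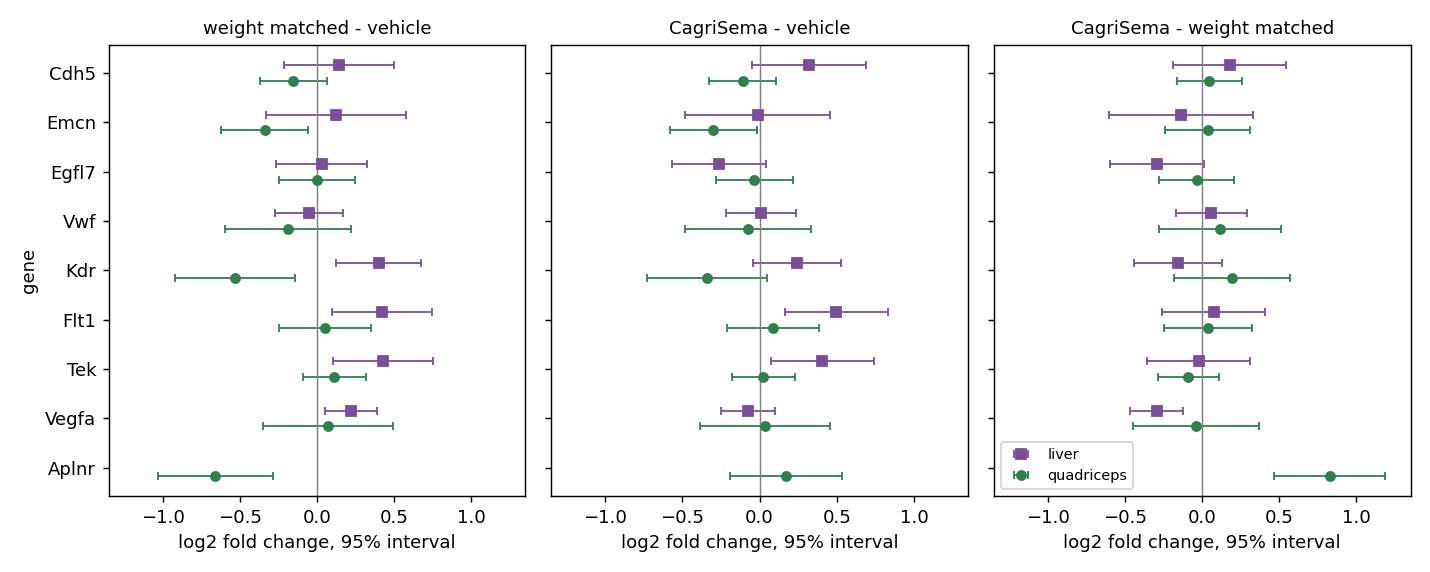
Log2 fold change (horizontal axis) of each gene in the 3 treatment comparisons, with squares for liver, circles for quadriceps and lines for 95% intervals. For weight matched against vehicle the Kdr values lie on opposite sides of 0, at 0.40 in liver and -0.53 in quadriceps.

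In vehicle rats 7 of the 8 genes tested differed between the tissues, where 83.4% of all genes did. Kdr was lower in quadriceps than in liver, with a log2 difference of -0.98 ± 0.17 (edgeR adjusted p = 9.67e-07), that is 0.508-fold. The other 6 were higher in quadriceps: Flt1 by 2.03 ± 0.16 (adjusted p = 4.44e-16), Vwf by 1.77 ± 0.16 (1.26e-13), Cdh5 by 1.63 ± 0.15 (9.91e-14), Emcn by 1.31 ± 0.19 (1.73e-08), Egfl7 by 0.50 ± 0.14 (0.000817) and Tek by 0.49 ± 0.14 (0.00102). Vegfa did not pass, at 0.09 ± 0.16 (adjusted p = 0.591), with an interval of -0.23 to 0.41. So the 2 VEGF receptors had opposite tissue differences, and the ratio of Kdr to Flt1 counts had a median of 4.38 in liver vehicle libraries and 0.509 in quadriceps vehicle libraries, with no overlap between the ranges of 3.80 to 5.70 and 0.367 to 0.720.

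Further VEGF ligands, receptors and co-receptors were described from a list of 8. In the quadriceps all 8 had a negative log2 fold change for weight matched against vehicle, with a median of -0.26, where 46.8% of all genes were positive with a median of -0.01. By edgeR 1 of 8 passed, against 2.29% of all genes, and DESeq2 called 3. Plxnd1, which encodes the semaphorin receptor plexin D1 of endothelial cells, ran from 39.9 to 68.8 CPM in vehicle libraries (median 57.5), 30.8 to 46.4 in weight-matched libraries (median 34.3) and 35.4 to 52.8 in CagriSema libraries (median 45.3). Its log2 fold change was -0.57 ± 0.12 (edgeR adjusted p = 0.0147) for weight matched against vehicle and 0.31 ± 0.11 (adjusted p = 0.502) for CagriSema against weight matched. The VEGF co-receptor genes Nrp2 and Nrp1 were at -0.60 ± 0.18 (adjusted p = 0.0731) and -0.43 ± 0.13 (adjusted p = 0.0835) for weight matched against vehicle. Below them lay the lymphatic VEGF receptor gene Flt4 at -0.30 and the ligand genes Vegfc at -0.22, Vegfb at -0.15, Vegfd at -0.11 and Pgf at -0.03. Against vehicle under CagriSema the same genes were at -0.26 for Plxnd1, -0.34 for Nrp2, -0.28 for Nrp1, -0.20 for Flt4, -0.54 for Vegfc, 0.01 for Vegfb, 0.11 for Vegfd and -0.22 for Pgf, and none passed.

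In the liver none of the 6 listed genes that were tested passed for weight matched against vehicle, and 1 had an unadjusted p under 0.05. Their log2 fold changes were 0.33 for Plxnd1, 0.27 for Nrp1, 0.21 for Flt4, 0.09 for Nrp2, -0.10 for Vegfc and -0.21 for Vegfb, and Vegfd and Pgf were too low to test. The difference between the tissues passed for 2 of 8 (2.76% over all genes), both lower in quadriceps: Plxnd1 at -0.90 ± 0.20 (adjusted p = 0.00881) and Nrp1 at -0.69 ± 0.20 (adjusted p = 0.0497). Without the 4 vehicle libraries that stood apart (liver 4 and 6, quadriceps 2 and 5), Plxnd1 was at -0.73 (adjusted p = 0.0184) and Nrp1 at -0.55 (adjusted p = 0.153). Without quadriceps vehicle library 8, Nrp1 was at -0.59 (adjusted p = 0.0935).

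A wider list of pan-endothelial genes gave opposite majorities in the tissues under weight matching. In the liver 19 of 25 tested genes had a positive log2 fold change, with a median of 0.12, where 48.1% of all genes were positive with a median of -0.01. Of the 25, 2 were higher, a share near the 7.02% of all genes that passed: Clec14a, a C-type lectin of the endothelium, at 0.54 ± 0.15 (edgeR adjusted p = 0.0317) and Adgrf5, an adhesion receptor, at 0.52 ± 0.16 (adjusted p = 0.0461). These liver values include vehicle libraries 4 and 6, and values of this list without them are not given here. In the quadriceps 5 of 26 were positive, with a median of -0.15, where 46.8% of all genes were positive. There edgeR called none, 6 had an unadjusted p under 0.05 and DESeq2 called 2. The difference between the tissues passed for 2 of 26 (2.76% over all genes), Clec14a at -0.80 ± 0.20 (adjusted p = 0.0190) and the ETS factor gene Erg at -0.69 ± 0.19 (adjusted p = 0.0379), the latter at an adjusted p of 0.0577 without the 4 libraries that stood apart and of 0.0728 without quadriceps vehicle library 8. For CagriSema against weight matched edgeR called 0 of 26 in the quadriceps, with none at an unadjusted p under 0.05 and none by DESeq2, and 19 of 26 were positive, with a median of 0.09.

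Genes of the specialised beds were read in the same way. All 13 tested liver sinusoidal genes had a positive log2 fold change for weight matched against vehicle in the liver, with a median of 0.23. Over all genes 48.1% were positive, with a median of -0.01. By edgeR none of the 13 passed, where 7.02% of all genes did, 5 had an unadjusted p under 0.05, and DESeq2 called 2. Without vehicle libraries 4 and 6 the median was 0.14, 12 were positive, and the hyaluronan receptor gene Lyve1 passed at 0.30 (adjusted p = 0.0220). The scavenger receptor gene Stab1 was the single sinusoidal gene whose response differed between the tissues, at -1.05 ± 0.24 (adjusted p = 0.0117). Over all genes 2.76% passed that test. Of 9 muscle capillary genes none passed by edgeR in the quadriceps for weight matched against vehicle, where 2.29% of all genes did. Of these 9, 1 had an unadjusted p under 0.05 and DESeq2 called none. All 9 were higher in quadriceps than in liver, with a median log2 difference of 5.92, where 47.8% of all genes had a positive difference. Among arterial, venous and Notch genes of the liver, Notch4 at 0.57 ± 0.15 (adjusted p = 0.0278) and Notch1 at 0.40 ± 0.12 (adjusted p = 0.0369) were the 2 of 12 that rose with weight matching, where 7.02% of all genes passed in either direction. Without vehicle libraries 4 and 6 Notch4 was at 0.45 (adjusted p = 0.0622) and Notch1 at 0.26 (adjusted p = 0.0547). Tie1, the partner of TIE2, was the 1 of 6 angiopoietin genes to differ between the tissues (2.76% over all genes), at -0.61 ± 0.17 (adjusted p = 0.0416). Tie1 was at -0.50 (adjusted p = 0.175) without the 4 libraries that stood apart and at -0.57 (adjusted p = 0.0695) without quadriceps vehicle library 8.

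Signals that act on endothelium were described from 2 more lists. In the quadriceps 1 of 3 tested shear stress response genes passed for CagriSema against weight matched, where 0.128% of all genes did: Klf4, a transcription factor gene, fell by 0.95 ± 0.19 on the log2 scale (edgeR adjusted p = 0.0464). Klf4 ran from 14.5 to 20.0 CPM in CagriSema libraries, 18.5 to 55.1 in weight-matched libraries and 20.6 to 50.3 in vehicle libraries, and its adjusted p was 0.0644 without vehicle libraries 2 and 5. Of 17 hypoxia-related genes in the liver, where 7.02% of all genes passed, 3 rose with weight matching: the MYC antagonist gene Mxi1 by 0.35 (adjusted p = 0.0255), the oxygen sensor gene Egln3 by 1.06 (adjusted p = 0.0256) and Epas1, which encodes HIF-2α, by 0.23 (adjusted p = 0.0367). In the quadriceps none of 17 passed by edgeR in that comparison, with 6 at an unadjusted p under 0.05 and 1 by DESeq2. The response of Egln3 differed between the tissues by -1.27 (adjusted p = 0.0115).

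Markers of other cells also differed between vehicle and weight-matched rats. In the liver the summed red blood cell markers had medians of 76.9 CPM in vehicle and 37.7 in weight-matched libraries, and the ranges overlapped. The summed hepatocyte markers had medians of 147687 and 134466 CPM, with overlapping ranges. Proliferation genes, a list apart from the cell markers, summed to 4.79 to 11.1 CPM in vehicle and 2.41 to 3.53 in weight-matched liver libraries. The sums were not tested, and 7.02% of all liver genes passed in this comparison. In the quadriceps the summed myofibre markers had medians of 149024 CPM in vehicle and 168880 in weight-matched libraries, and the Schwann cell markers 20.8 and 11.8, each with overlapping ranges. There 1 of 12 pericyte and smooth muscle genes was lower in weight-matched than in vehicle rats, Cspg4 at -0.60 ± 0.16 (edgeR adjusted p = 0.0474; 2.29% of all genes passed), and the summed level of the 12 had medians of 543 CPM in vehicle, 563 in weight-matched and 554 in CagriSema libraries. The fibroblast markers summed to 763 to 1709 CPM in vehicle, 409 to 806 in weight-matched and 422 to 761 in CagriSema quadriceps, and the collagen genes Col1a1 (-1.52, adjusted p = 0.0315) and Col3a1 (-1.27, adjusted p = 0.0262) were lower in weight-matched than in vehicle rats. None of these 3 passed without vehicle libraries 2 and 5, with Cspg4 at -0.43 (adjusted p = 0.271), Col1a1 at -1.22 (0.186) and Col3a1 at -0.88 (0.185). Their part in the values of the endothelial genes was not tested.

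By correlation over all libraries, treatment differences included, the genes most like Aplnr in the quadriceps were not the other endothelial genes of the set. Across 23 quadriceps libraries and 10722 genes, the highest Pearson correlations of log2 CPM with Aplnr were those of Arhgef40 (0.85), Nr1d1 (0.79), Efna1 (0.79), Sema4c (0.78) and Irf1 (0.77). Arhgef40 encodes a guanine nucleotide exchange factor, Nr1d1 the clock repressor REV-ERBα, Efna1 the ligand ephrin-A1, Sema4c a semaphorin and Irf1 an interferon-responsive transcription factor. About the group means, which removes the treatment differences, the correlations were 0.73, 0.70, 0.60, 0.58 and 0.70 in that order. Without the 2 libraries farthest from the Aplnr median, weight-matched 26 and 28, they were 0.78, 0.72, 0.80, 0.75 and 0.65. Median levels in vehicle, weight-matched and CagriSema libraries were 22.9, 17.1 and 22.3 CPM for Arhgef40, 98.3, 55.7 and 74.1 for Nr1d1, and 9.39, 7.90 and 10.5 for Efna1. Among the set, Kdr had a correlation of 0.49 with Aplnr (rank 372), Vwf 0.43, Emcn 0.41, Egfl7 0.40, Cdh5 0.27, Tek 0.05, Flt1 -0.04 and Vegfa -0.10. About the group means, Egfl7 was at 0.591, between Efna1 at 0.595 and Sema4c at 0.583. On that measure Emcn was at 0.45, Vwf 0.44, Kdr 0.43, Tek 0.33, Cdh5 0.21, Vegfa -0.05 and Flt1 -0.08. The points share library, depth and treatment, and the correlations are a description.

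Within treatment groups the median correlation over all pairs of the set was higher in the quadriceps than in the liver, as a description. In the quadriceps 34 of 36 pairs of the 9 genes had a positive correlation about the group means, with a median of 0.617 and a range of -0.0757 to 0.854 over 23 libraries. In the liver 19 of 28 pairs of the 8 genes did, with a median of 0.272 and a range of -0.664 to 0.898. The median was 0.644 in quadriceps without vehicle libraries 2 and 5, and 0.198 in liver without vehicle libraries 4 and 6. Quadriceps vehicle library 8, which also stood apart, was kept, and correlations without it are not given here. Pairs among Kdr, Flt1, Cdh5 and Tek went the other way over all libraries, at 0.806 to 0.898 in liver and 0.575 to 0.854 in quadriceps. Without liver vehicle libraries 4 and 6 these pairs were at 0.508 to 0.675 in liver. In quadriceps they were at 0.585 to 0.852 without vehicle libraries 2 and 5.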

How the data were processed

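RNA was measured by bulk sequencing in 46 libraries, with RNA from an RNeasy kit and a Twist UMI (molecular barcode) system per the labels' protocols. The authors deposited read counts per gene in 1 table. The submitters' processing notes name fastp 0.23.1 and STAR 2.5.2b. Not given in the sources used here were the genome build, the annotation, the counting tool, its strand setting and whether counts were collapsed by UMI. 1 column that no label matched was not used.

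Genes were matched by symbol, and groups came from the treatment and tissue labels. Within each tissue, edgeR 4.0.16 (R 4.3.3, limma 3.58.1) fitted the quasi-likelihood test to all 3 treatments with TMM factors and its default filter on low counts. The differences between tissues came from 1 fit over both. p-values were adjusted over all genes tested by the Benjamini-Hochberg method, with a threshold of 0.05. Log2 CPM used a prior count of 2, and 95% intervals came from the SE and the residual degrees of freedom. A floor is 3 counts. Alternatives were other scaling factors, no filter, DESeq2 1.42.0, fits of 2 groups and left-out libraries. Leaving out quadriceps vehicle library 8, or liver vehicle libraries 4 and 6 alone, in the fit over both tissues, the unfiltered fit over both tissues and the alternatives for gene lists were chosen after seeing the data. The genes and the 22 gene lists (184 genes, of which 5 had no entry) were chosen with earlier results of these data known. The text names, per list and comparison, up to 2 genes past the threshold (those of lowest p), the genes of the apelin and VEGF lists (1 of them is not reported here), and the 5 genes most correlated with Aplnr among those of at least 1 CPM. Beyond that rule, Lyve1 and Epas1 were named after their values were seen. The tests were checked on simulated data. No 2 libraries of a tissue agreed within sampling noise: over 253 pairs, chi-square per degree of freedom was at least 13.4 in liver and at least 5.72 in quadriceps.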

Additional observations from a re-analysis of the deposited data

Results flagged for a closer look

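Over 51 groups of 1 gene, tissue and treatment, 2 had a library far from the others by Dixon's test at 95%, where chance gives about 1 in 20. Vegfa in liver CagriSema library 35 was 369 CPM, with the nearest library at 335. Egfl7 in liver vehicle library 4 was 20.5 CPM, with the nearest at 13.6, and this library stood apart over all genes. The response of Kdr to weight matching differed between quadriceps and liver by a tested log2 difference of -0.93 (edgeR).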

How the results depend on the processing

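Counts of genes of the set past the threshold changed with the processing. For liver weight matched against vehicle, 0 became 2 with library totals only and 2 with DESeq2, and 0 to 2 over fits leaving out 1 library. For liver CagriSema against weight matched, 0 became 1 with DESeq2, 1 with only the 2 groups and 1 without vehicle libraries 4 and 6, and 0 to 1 leaving out 1 library. For quadriceps weight matched against vehicle, 1 became 0 with no filter, 0 with only the 2 groups and 0 without vehicle libraries 2 and 5, and 0 to 1 leaving out 1 library. For quadriceps CagriSema against weight matched, 1 became 0 with library totals only, 0 with no filter and 0 with only the 2 groups, and 0 to 1 leaving out 1 library. Both quadriceps counts of 1 were Aplnr, which these contrasts chose, so they are not read as a test of it. Kdr passed the test between tissues in every alternative run for it, at -0.91 with DESeq2 size factors, -1.11 with library totals only and -0.88 without the 4 vehicle libraries that stood apart.

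Of 1703 alternative values of single genes, 1647 kept their call, 44 lost it, 12 gained one and none of the called values changed sign, while 85 values that were not called did. Library totals only put the median log2 fold change of all genes at 0.11 in place of -0.01 in liver and at -0.10 in place of -0.01 in quadriceps (weight matched against vehicle), and moved calls in liver from 316 higher and 576 lower to 563 and 282. In the quadriceps that comparison called 285 genes, but 7 with only the 2 groups, 19 without vehicle libraries 2 and 5 and 348 higher and 345 lower with DESeq2.

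Liver and quadriceps titles share 22 numbers. Deviations of same-numbered libraries correlated weakly (6 of 22 correlations over 0.1, median 0.0737), yet 18 of 22 correlated best with their own number. The labels do not say whether the number marks a rat. The differences between tissues given above came from a fit without this pairing, and paired values are given here for Kdr only. With the number as a replicate block the Kdr difference was -0.94 (adjusted p = 0.0453), and 134 genes were higher and 148 lower against 195 and 194 without it. The depth limits Aplnr in liver, at 0 to 4 counts per library.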
